A study of Sus scrofa with 12 samples.

Results

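PPARD, UCP2 and ACSS1 are 3 of the 31903 gene identifiers measured by RNA-Seq in fat and muscle of Dingyuan pigs, which are native to China and deposit much fat. They were chosen by their FPKM in fat, since the study lists them among the genes that differ in fat between pigs with thick and thin backfat. That difference is therefore described below without a test, whereas their levels in muscle and the difference between the tissues were tested. The values are FPKM, in which the fragments of a gene are divided by its transcript length and by the depth of the library, so that levels can be set side by side between genes.

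The pigs were unmated sows aged 300 days, kept on 1 farm under the same feeding, of similar body weight and with no treatment stated. Back subcutaneous fat was sampled from pigs with low backfat thickness (LBF, n = 3) and high backfat thickness (HBF, n = 3), and longissimus dorsi (LD) muscle from pigs with low intramuscular fat (LIMF, n = 3) and high intramuscular fat (HIMF, n = 3). The pigs were sorted by phenotype, and which fat and muscle libraries come from the same pig is not stated in the labels. In such bulk tissue, fewer cells of a type and less RNA per cell cannot be told apart.

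PPARD encodes PPARδ, a nuclear receptor for fatty acids that binds DNA together with a retinoid X receptor and switches on genes of fatty acid uptake and oxidation. UCP2 encodes a carrier of the inner mitochondrial membrane from the family of the brown fat protein UCP1, and it is expressed in many tissues, immune cells among them. ACSS1 encodes the acetyl-CoA synthetase of the mitochondrial matrix, which joins acetate to coenzyme A so that the acetyl group can enter the TCA cycle. ACSS2 carries out the same reaction in the cytosol and nucleus, where the product can feed lipid synthesis and histone acetylation.

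The genes lie on different chromosomes of the Sscrofa11.1 assembly, in RefSeq coordinates matched by symbol. PPARD (ENSSSCG00000001539) spans 31222533 to 31295221 on chromosome 7, UCP2 (ENSSSCG00000014833) spans 8358559 to 8364552 on chromosome 9, and ACSS1 (ENSSSCG00000007133) spans 30800536 to 30839799 on chromosome 17. The span of UCP2 shares 59 bases with that of DNAJB13, and its paralog UCP3 begins 13470 bases further along the chromosome, at 8378023. How reads shared by UCP2 and these neighbours were divided was not tested.

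The libraries carried the markers of their labelled tissues. The summed FPKM of 8 adipocyte genes was 8552 to 13830 in fat and 162 to 415 in muscle, and that of 8 skeletal muscle fibre genes was 9710 to 28130 in muscle. Muscle fibre transcripts were also found in fat, at 240 summed FPKM in LBF replicate 3 and 1.22 to 12.7 in the other 5 libraries. In muscle, ACTA1, the skeletal actin, was listed at 0 in the 3 LIMF libraries and HIMF replicate 1, and CKM, the muscle creatine kinase, was listed at 0 in LIMF replicates 2 and 3. Both genes reached 7172 to 9637 FPKM in the muscle libraries where they were above 0. The FPKM summed to 420982 to 517796 per library. In muscle these totals did not overlap, at 430581 to 450875 in LIMF and 496972 to 517796 in HIMF. FPKM does not give the number of reads behind a value.

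In back fat the 3 genes were higher in every HBF library than in any LBF library. PPARD stood at 10.1, 11.6 and 11.3 FPKM in LBF replicates 1 to 3 and at 33.4, 37.1 and 17.3 in HBF. The LBF libraries lay close together, while HBF replicate 3 lay nearer to them than to the other HBF libraries. The group means were 11.0 ± 0.791 (SD, n = 3) and 29.2 ± 10.5 (SD, n = 3), a ratio of 2.66, and the log2 fold change was 1.33 ± 0.282 (SE). This and the following fold changes are on the log2(FPKM + 0.1) scale.

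UCP2 stood at 3.63, 7.60 and 4.02 FPKM in LBF, against 16.7, 11.6 and 16.9 in HBF. The highest LBF library and the lowest HBF library were both replicate 2. The group means were 5.08 ± 2.19 and 15.0 ± 3.02 FPKM (SD, n = 3 each), a ratio of 2.96, and the log2 fold change was 1.60 ± 0.304 (SE). UCP2 had the largest ratio of the 3 genes.

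ACSS1 stood at 3.58, 5.27 and 6.57 FPKM in LBF, against 12.1, 10.3 and 15.0 in HBF. In FPKM the gap between the groups, from 6.57 to 10.3, was wider than the spread within LBF and narrower than that within HBF. The group means were 5.14 ± 1.50 and 12.5 ± 2.36 FPKM (SD, n = 3 each), a ratio of 2.43, and the log2 fold change was 1.29 ± 0.252 (SE). HBF replicate 3 was the highest library for ACSS1 and the lowest HBF library for PPARD, so the genes did not rank the HBF libraries alike.

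**Figure D1:**
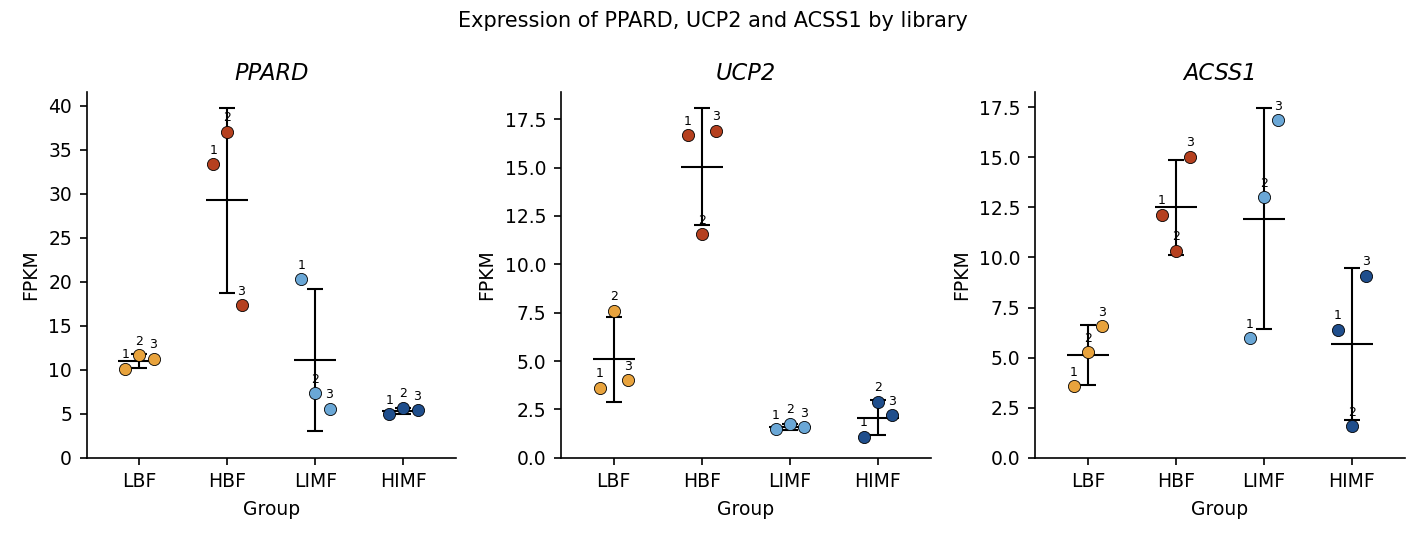
FPKM (linear axes from 0) of PPARD, UCP2 and ACSS1 in the 12 libraries by group, with the replicate number above each point and bars for the mean ± SD of 3 libraries. The HBF points lie above all LBF points for each gene, whereas the LIMF and HIMF points overlap.

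These fat values say how the genes were chosen and carry no p-value. Groups that do not overlap are common in this comparison, since 13.9% of the 16239 genes tested were higher in every HBF library and 6.46% were lower. With limma, 0% of genes (0 of 16239) passed an adjusted p under 0.01 with at least a doubling or halving, and 2206 had an unadjusted p under 0.05, 9.36% of all genes with a higher and 4.22% with a lower level in HBF. For all genes the median log2 fold change stood at 0.089. After median-of-ratios scaling, which sets the typical gene of each library to the same level, the log2 fold changes were 1.22 for PPARD, 1.50 for UCP2 and 1.19 for ACSS1.

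In muscle, none of the 3 genes separated HIMF from LIMF. PPARD stood at 20.3, 7.35 and 5.59 FPKM in LIMF, against 4.99, 5.68 and 5.40 in HIMF. LIMF replicate 1 stood far above the other muscle libraries, and LIMF replicate 3 lay below HIMF replicate 2. The log2 fold change of HIMF against LIMF was -0.81 ± 0.437 (SE), with a 95% interval from -1.82 to 0.21 and an adjusted p of 0.750 from limma. Without LIMF replicate 1 it was -0.26. The two-sided exact permutation p was 0.2, where 3 libraries against 3 give at least 0.1.

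UCP2 was low in muscle, at 1.47, 1.77 and 1.58 FPKM in LIMF, against 1.10, 2.91 and 2.2 in HIMF. The HIMF libraries spanned the LIMF range on both sides. The log2 fold change was 0.25 ± 0.356 (SE), with a 95% interval from -0.57 to 1.08, an adjusted p of 0.909 from limma and an exact permutation p of 0.6. Without HIMF replicate 2 the estimate turned to -0.04.

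ACSS1 varied most among the muscle libraries, at 5.96, 13.0 and 16.9 FPKM in LIMF, against 6.39, 1.58 and 9.08 in HIMF. The highest muscle library had 10.7 times the level of the lowest, against 4.07 times for PPARD and 2.65 times for UCP2. The log2 fold change was -1.25 ± 0.645 (SE), with a 95% interval from -2.74 to 0.24, an adjusted p of 0.743 from limma and an exact permutation p of 0.3. Without HIMF replicate 2 it was -0.52. The intervals of all 3 genes held 0, so their direction in muscle was not resolved with these libraries.

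Across all genes in muscle, 0% (0 of 14292) passed the same limits in limma, and 1004 had an unadjusted p under 0.05, 4.51% of all genes with a higher and 2.52% with a lower level in HIMF. The groups did not overlap for 7.93% of genes that were higher and 4.74% that were lower in HIMF, and PPARD, UCP2 and ACSS1 were not among them. Whether the difference in fat was unlike that in muscle was not tested, because the fat difference had chosen the genes.

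The tissues differed in their level of UCP2. Over the 6 libraries of each tissue it ranged from 3.63 to 16.9 FPKM in fat (median 9.58) and from 1.10 to 2.91 in muscle (median 1.67), and the ranges did not overlap. Its level was higher in fat by 2.21 ± 0.247 (log2, SE), with an adjusted p of 5.12e-06 from limma. The difference was 1.31 (adjusted p = 0.000446, limma) after median-of-ratios scaling and 1.19 (adjusted p = 0.00138, limma) after quantile normalization. Both LBF and HBF lay above both muscle groups, so the order was HBF, LBF and then HIMF and LIMF, of which the last pair overlapped.

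PPARD ranged from 10.1 to 37.1 FPKM in fat (median 14.5) and from 4.99 to 20.3 in muscle (median 5.64). Its level was higher in fat by 1.29 ± 0.287 (log2, SE; adjusted p = 0.00134, limma). This call was lost when the libraries were scaled to each other, with a difference of 0.37 (adjusted p = 0.286, limma) after median-of-ratios scaling and 0.66 (adjusted p = 0.0552, limma) after quantile normalization. By mean the order was HBF, LIMF, LBF and HIMF. LIMF overlapped with each of the others, and LBF lay above every HIMF library.

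ACSS1 was at a mean of 8.82 FPKM in fat and 8.81 in muscle. The difference was 0.15 ± 0.391 (log2, SE; 95% interval -0.70 to 1.01; adjusted p = 0.729, limma), and it turned to -0.76 (adjusted p = 0.0880, limma) with median-of-ratios scaling and to -0.66 (adjusted p = 0.104, limma) with quantile normalization. Each group overlapped the next in the order HBF, LIMF, HIMF and LBF. HBF nevertheless lay above HIMF, with 10.3 as its lowest library against 9.08 as the highest of HIMF.

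**Figure D2:**
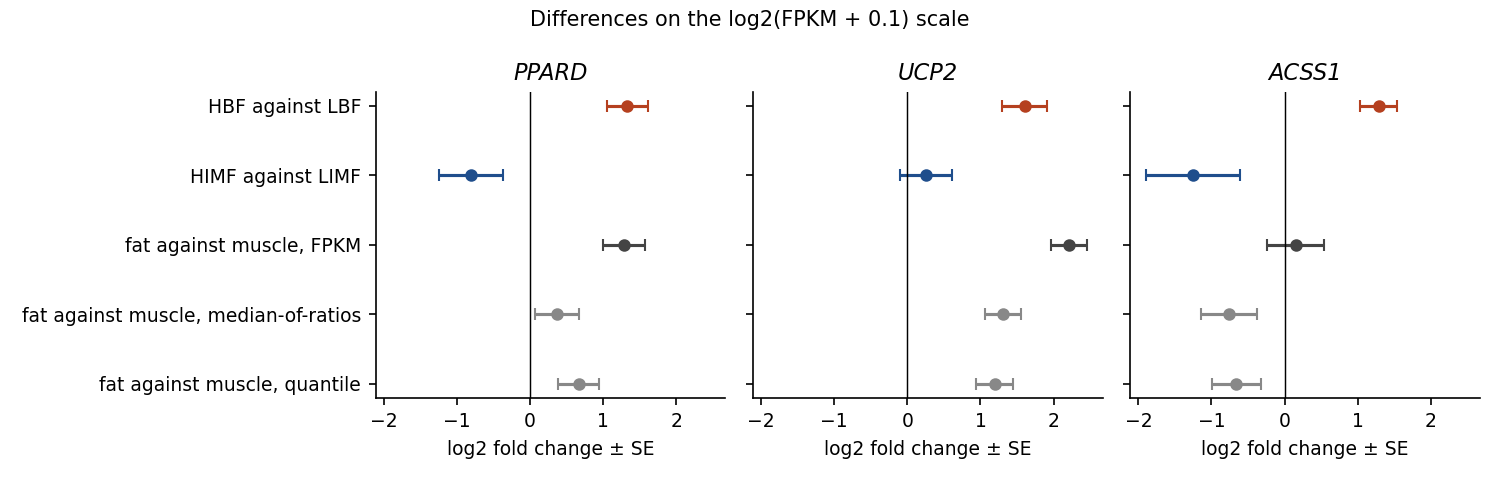
Log2 fold change ± SE (horizontal axis, log2(FPKM + 0.1) scale) of each gene for HBF against LBF, HIMF against LIMF and fat against muscle, the last also after median-of-ratios scaling and quantile normalization. UCP2 stays above 0 under each scaling of the tissue comparison, while ACSS1 moves from 0.15 to -0.76 and -0.66.

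The scaling matters in the tissue comparison because the typical gene had a higher FPKM in fat, with a median log2 difference of 0.965 over the 15965 genes tested, 0.252 after median-of-ratios scaling and 0.065 after quantile normalization. Relative to that median, UCP2 was higher in fat by 1.24, PPARD by 0.32 and ACSS1 was at -0.81. At the same limits 47.1% of all genes were called higher in fat and 9.29% lower. A call in one direction or the other was thus the outcome for most genes.

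PPARD is 1 of 3 PPAR receptors, and its place among them differed by group. PPARG, the receptor that drives adipocyte differentiation, stood at 64.5 to 127 FPKM in fat and 0.28 to 1.15 in muscle. PPARG had 9.43 to 11.9 times the level of PPARD in the LBF libraries and 1.93 to 7.32 times in HBF. In muscle the order was turned, with PPARG at 0.0137 to 0.230 of the level of PPARD.

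PPARA, the receptor linked to fatty acid oxidation in liver and muscle, stood at 4.18, 2.23 and 4.40 FPKM in LBF, against 1.49, 3.06 and 2.88 in HBF. PPARD had 2.42 to 5.23 times its level in LBF and 6.02 to 22.4 times in HBF. In muscle PPARA stood at 9.39, 6.85 and 9.40 FPKM in LIMF, against 2.59, 2.43 and 4.24 in HIMF. Those groups did not overlap, as in 4.74% of all genes that were lower in HIMF. The log2 fold change of -1.47 ± 0.273 (SE) had an adjusted p of 0.402 in limma. The study also lists PPARA from these muscle libraries, so its direction is not independent evidence. PPARD thus had its lowest mean in HIMF and PPARA in HBF.

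The retinoid X receptors are the DNA-binding partners of PPARδ. In HBF against LBF, RXRA had a log2 fold change of -0.04, RXRB of 0.25 and RXRG of 0.38, with adjusted p-values of 0.956, 0.468 and 0.846 in limma. RXRB was the only one without overlap, higher in HBF like 13.9% of all genes, at 9.20 to 9.57 FPKM in LBF and 10.3 to 13.0 in HBF. In muscle RXRG ranged from 5.43 to 15.5 FPKM in LIMF and from 10.9 to 26.2 in HIMF, with a log2 fold change of 0.98 (adjusted p = 0.719, limma).

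UCP2 was at a lower level than UCP3 in every library. UCP3, best known from skeletal muscle, stood at 55.6, 58.4 and 83.6 FPKM in LBF, against 120, 98.98 and 66.8 in HBF. In muscle it stood at 178, 136 and 70.7 in LIMF, against 61.8, 97.2 and 85.0 in HIMF. UCP3 had 7.68 to 20.8 times the level of UCP2 in LBF, 3.95 to 8.56 times in HBF and 33.4 to 121 times in muscle. The HBF and LBF ranges of UCP3 overlapped, with a log2 fold change of 0.52 ± 0.256 (SE; adjusted p = 0.424, limma). UCP1 was not analysed here.

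ACSS1 went the other way from its relatives in fat. ACSS2 stood at 64.2, 29.7 and 35.2 FPKM in LBF, against 22.5, 21.9 and 26.7 in HBF. ACSS3, a mitochondrial synthetase that prefers propionate, stood at 12.2, 17.3 and 14.3 in LBF, against 3.83, 7.84 and 8.51 in HBF. AACS, which activates acetoacetate in the cytosol, stood at 41.7, 33.1 and 33.2 in LBF, against 5.35, 9.75 and 8.52 in HBF. None of these 3 relatives had an HBF library as high as any LBF library, which held for 6.46% of all genes.

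Their log2 fold changes were -0.78 ± 0.282 for ACSS2, -1.17 ± 0.312 for ACSS3 and -2.21 ± 0.237 for AACS (SE), with adjusted p-values of 0.324, 0.255 and 0.128 in limma. The value of AACS was the smallest adjusted p of all genes in this comparison. The study also lists AACS and ACSS3 from these libraries, so their direction is not independent evidence. Within a library, ACSS2 had 5.35 to 17.9 times the level of ACSS1 in LBF and 1.78 to 2.12 times in HBF. ACSS1 had 0.293 to 0.459 of the level of ACSS3 in LBF and 1.32 to 3.17 times its level in HBF. The order of these 2 mitochondrial synthetases was thus turned in all 6 fat libraries according to group.

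In muscle the relatives of ACSS1 overlapped between the groups. The log2 fold changes of HIMF against LIMF were 0.18 for ACSS2, -0.77 for ACSS3 and -0.49 for AACS, with adjusted p-values of 0.940, 0.778 and 0.838 in limma. ACSS1 was above ACSS3 in every muscle library, by 1.28 to 4.07 times.

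**Figure D3:**
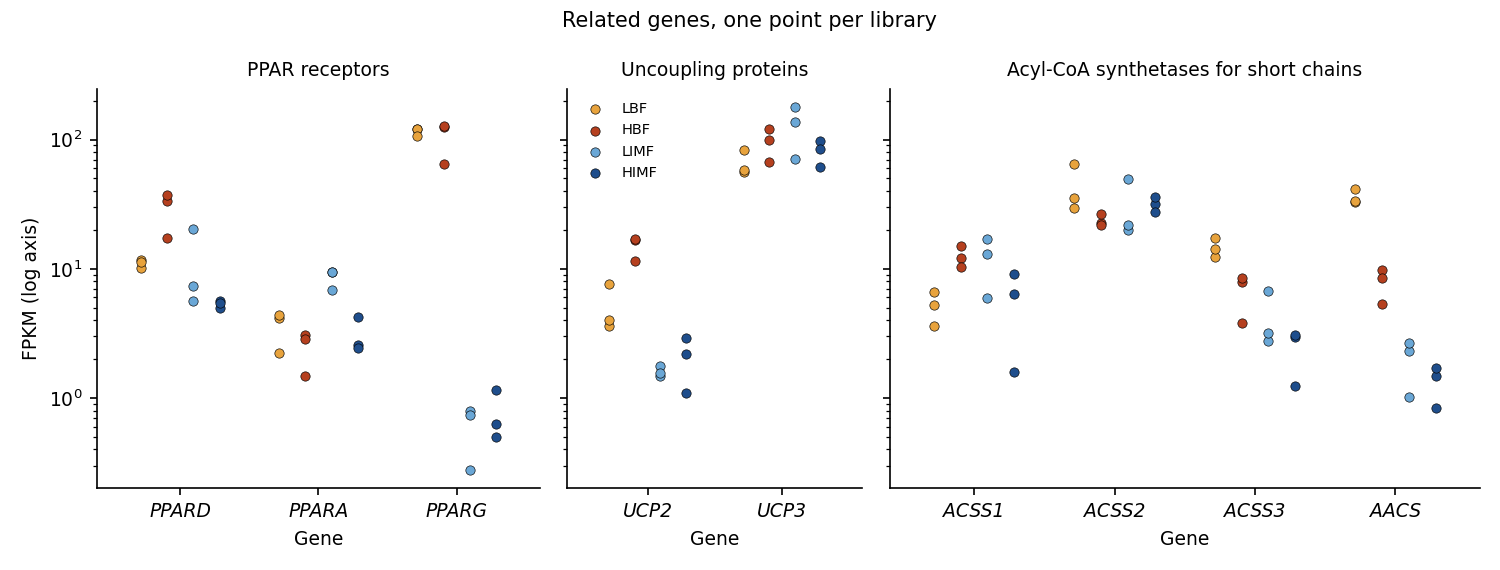
FPKM (log axis) of PPARD, UCP2 and ACSS1 beside their relatives, with 1 point for each library and colours for the 4 groups. PPARG lies above 60 FPKM in fat and near 1 in muscle, UCP3 lies above UCP2 in every group, and ACSS1 is the synthetase whose HBF points lie above its LBF points.

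The genes around the 3 were described with 5 lists of pathway genes, without PPARD, UCP2 and ACSS1 themselves. No gene of these lists passed the limits in fat or in muscle with limma, and neither did any other gene tested. Of 14 receptors, coactivators and corepressors of the PPAR pathway, PPARGC1B, a coactivator of mitochondrial genes, had an unadjusted p under 0.05 in fat, at 0.80, 0.59 and 1.17 FPKM in LBF, against 1.67, 1.37 and 1.37 in HBF. This 1 of 14 was near the 9.36% of all genes that were higher, and 0 were lower, against 4.22%. The median log2 fold change of the list was 0.02. In muscle PPARA and NCOA2 were lower at that limit and 0 were higher, against 2.52% and 4.51% of all genes. The numbers were 1 lower and 1 higher without LIMF replicate 1, 3 and 1 without LIMF replicate 3, and 1 and 0 without HIMF replicate 2. PPARGC1A, the main coactivator of mitochondrial biogenesis, stood at 32.0, 7.06 and 6.61 FPKM in LIMF, against 2.98, 5.42 and 5.69 in HIMF. LIMF replicate 1, where PPARD was highest in muscle, was also the highest library for PPARGC1A.

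Of 42 PPAR target genes in fat, 1 was higher and 6 were lower in HBF at an unadjusted p under 0.05, against 9.36% and 4.22% of all genes, and the list's median log2 fold change was 0.00 against 0.09 for all genes. The higher one was ACSL5, and the lower ones were CYP27A1, ME1, LPL, ACAA2, EHHADH and ACADL. The study reports LPL as higher in HBF and, short of its limits, in HIMF, opposite in direction to these FPKM. The numbers of higher and lower targets were 0 and 8 after either scaling, and 6 and 5 without LBF replicate 3. The lipid droplet genes PLIN5 and PLIN4 had the highest log2 fold changes, 1.03 and 0.91, and the sterol hydroxylase CYP27A1 and the malic enzyme ME1 had the lowest, -2.31 and -1.04, with adjusted p-values of 0.428, 0.469, 0.302 and 0.238 in limma.

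Direct targets by which PPARδ activity is often read were also looked at, a choice made with their values in view. PDK4, which holds back the oxidation of glucose, stood at 165, 295 and 389 FPKM in LBF, against 310, 266 and 169 in HBF. ANGPTL4, an inhibitor of lipoprotein lipase, stood at 32.8, 137 and 94.3 in LBF, against 154, 107 and 99.4 in HBF. CPT1A, which admits fatty acids to mitochondria, stood at 14.3, 26.4 and 17.3 in LBF, against 25.4, 23.8 and 22.1 in HBF. In each of these 3 the groups overlapped. Over the whole list of targets, 4 genes were higher (PLIN5, FABP5, ACSL5 and SLC27A4) and 5 lower without overlap, against 13.9% and 6.46% of all genes.

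In muscle, 5 of 41 PPAR targets were higher and 4 were lower in HIMF at an unadjusted p under 0.05, against 4.51% and 2.52% of all genes. The numbers were 4 and 7 without LIMF replicate 1, and 7 and 6 without LIMF replicate 3. PLIN1 and ADIPOQ, both adipocyte genes, had the highest log2 fold changes, 1.98 and 1.90, and PCK1 and the fatty acid carrier FABP3 had the lowest, -2.65 and -2.06, with adjusted p-values of 0.544, 0.594, 0.811 and 0.601 in limma. PCK1 rested on 1 library, LIMF replicate 2 with 36.0 FPKM against 0.03 to 0.25 in the others.

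Of 21 other carriers of the mitochondrial membranes, 2 were higher and 3 were lower in HBF at an unadjusted p under 0.05. Of all genes 9.36% were higher and 4.22% lower, so the share of higher carriers was near that of all genes. The median log2 fold change was -0.18. After median-of-ratios scaling 1 was higher and 7 were lower. SLC25A25, a carrier of ATP and phosphate, and SLC25A13, an aspartate and glutamate carrier, had the highest values, 1.15 and 0.76. SLC25A35 and the citrate carrier SLC25A1 had the lowest, -1.22 and -0.79, with adjusted p-values of 0.227 and 0.222 in limma. SLC25A1, which exports citrate for lipid synthesis, stood at 46.8, 36.1 and 38.4 FPKM in LBF, against 27.7, 21.1 and 21.5 in HBF, opposite in order to UCP2.

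In muscle, 5 carriers were lower and 0 were higher in HIMF at that limit, against 2.52% and 4.51% of all genes, with a median of -0.36. The count of lower ones fell to 2 without LIMF replicate 1 and to 2 without HIMF replicate 2. Without LIMF replicate 3 it was 6, with 1 higher. The lowest were SLC25A33 and the adenine nucleotide carrier SLC25A6, at -2.06 and -0.94 (adjusted p = 0.601 and 0.650, limma), and the highest were SLC25A27 and SLC25A12, at 0.45 and 0.18. UCP2, at 0.25, lay between SLC25A27 and SLC25A12.

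Of 24 other genes of acetate, acetyl-CoA and ketone body metabolism in fat, 1 was higher and 10 were lower in HBF at an unadjusted p under 0.05, against 9.36% and 4.22% of all genes. The list's median log2 fold change was -0.25, and 2 genes were higher and 12 lower without overlap of the groups, against 13.9% and 6.46% of all genes. The lower ones included AACS, ACSS2, ACSS3, ACAT1, ACAT2, CS, PDHA1, PDHB and SIRT3. The study lists AACS, ACSS3 and ACAT1 from these libraries, so their direction is not independent evidence. CS, the citrate synthase that takes up acetyl-CoA in the matrix, stood at 84.7, 79.0 and 63.0 FPKM in LBF, against 44.3, 56.7 and 43.3 in HBF. The thioesterase ACOT9 was the higher one at 0.51, and the transporter SLC16A7 had the highest value, 0.58 (adjusted p = 0.238 and 0.411, limma).

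SIRT3, the matrix deacetylase known to activate ACSS1 protein, was thus on the lower side. Without LBF replicate 3 the numbers were 1 and 8, and after either scaling 1 and 12. In muscle 3 of 23 genes of the list were lower and 0 higher in HIMF at that limit, against 2.52% and 4.51% of all genes, with a median of -0.24. Without LIMF replicate 3, 3 were lower and 2 higher, with a median of 0.04. The ketone body enzyme BDH1 and the malonyl-CoA decarboxylase MLYCD had the lowest log2 fold changes, -1.80 and -1.29 (adjusted p = 0.544 each, limma). BDH1 is also among the genes that the study lists from these muscle libraries. PDHB was near the upper end at 0.22.

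Among 31 genes of mitochondrial respiration and the TCA cycle, the pathway that oxidises the acetyl-CoA made by ACSS1, 14 were lower and 0 higher in HBF at an unadjusted p under 0.05, against 4.22% and 9.36% of all genes, and the median log2 fold change was -0.33. The groups did not overlap for 17 that were lower and 2 that were higher, against 6.46% and 13.9% of all genes. UQCRC1, a core subunit of complex III, stood at 87.5, 76.8 and 80.7 FPKM in LBF, against 46.8, 39.7 and 47.9 in HBF. Its log2 fold change of -0.87 ± 0.130 (SE) and that of SDHC, -0.80 ± 0.224 (SE), were the lowest of the list, with adjusted p-values of 0.168 and 0.268 in limma. CYCS and IDH2 were at the upper end, 0.25 and 0.15. The number was 14 without LBF replicate 3 and 18 after either scaling.

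Both mitochondrial genes described here, UCP2 and ACSS1, were thus higher in HBF in libraries where the median of the TCA cycle and respiratory chain genes was lower. In muscle 0 genes of that list reached the limit in either direction, against 4.51% higher and 2.52% lower of all genes, and the median was -0.15. Without LIMF replicate 3, 2 were higher and the median was 0.08. CS had the lowest value there, -0.67, and SDHC and IDH3G the highest, 0.20 and 0.15.

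**Figure D4:**
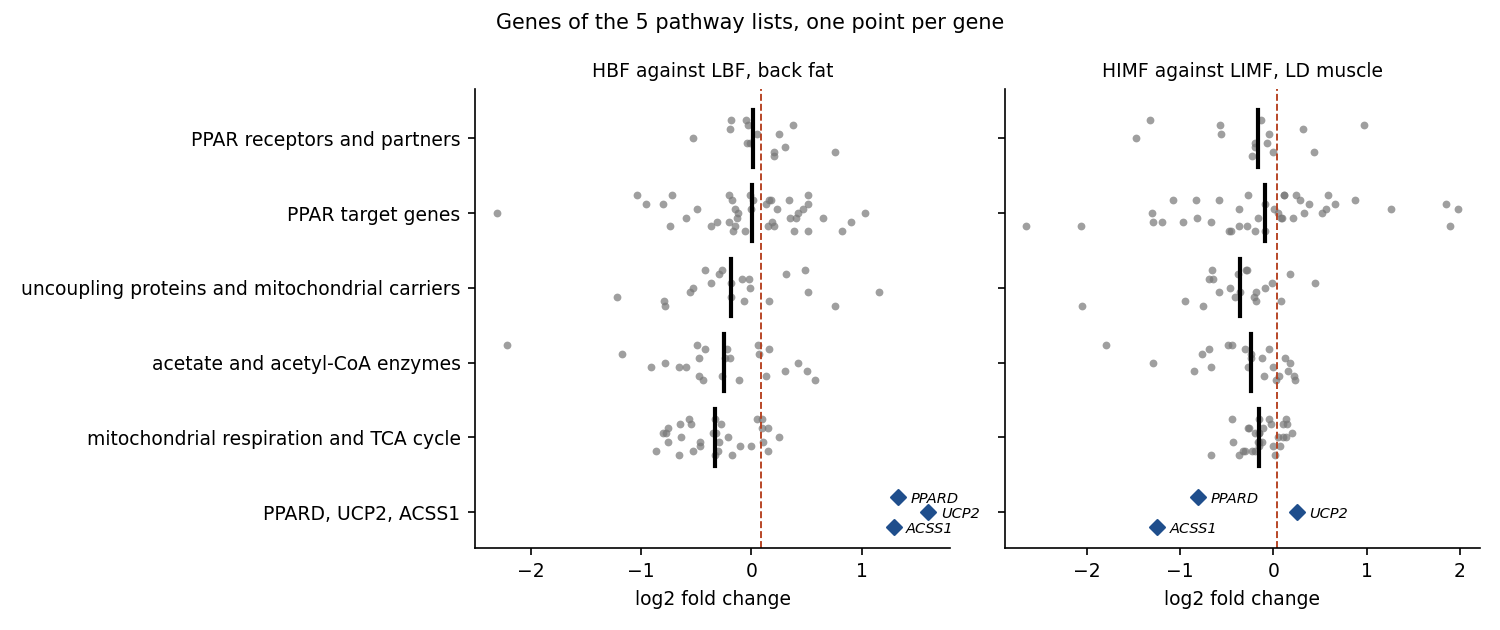
Log2 fold change (horizontal axes) of each gene in the 5 pathway lists, 1 point per gene, for HBF against LBF (left) and HIMF against LIMF (right), with a black bar at the list median, a dashed line at the median of all genes and diamonds for PPARD, UCP2 and ACSS1. In fat the diamonds lie right of all points of the acetate and respiration lists, whose medians are -0.25 and -0.33; in muscle PPARD and ACSS1 lie left of 0.

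Across the muscle libraries ACSS1 was highest in LIMF replicate 3 and lowest in HIMF replicate 2. The same 2 libraries were the extremes for 5.64% of the genes tested in muscle, for 8 of 41 PPAR targets, 5 of 23 acetate genes, 6 of 31 respiration genes, 3 of 21 carriers and 2 of 14 receptors and partners, a pattern noticed after the values were seen. CPT2, the inner mitochondrial partner of CPT1A, was one of them, at 13.5, 15.2 and 44.6 FPKM in LIMF, against 11.0, 5.60 and 19.6 in HIMF. FABP3 was another, at 329, 365 and 758 in LIMF, against 100, 42.4 and 295 in HIMF. PPARD and UCP2 did not share these extremes, since UCP2 was highest in HIMF replicate 2.

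No gene at all passed the limits in fat (0 of 16239), so the marker genes of other cell types could not be told apart by calls. The sums of the marker lists are given beside the 3 genes. The summed FPKM of 12 macrophage and other immune genes was 117, 185 and 304 in LBF, against 308, 295 and 336 in HBF. Of these genes 7 were higher in HBF at an unadjusted p under 0.05 (C1QB, CSF1R, AIF1, CD14, SPI1, TYROBP and CD68), against 9.36% of all genes, and the count was 3 after median-of-ratios scaling, 5 after quantile normalization and 10 without LBF replicate 3. CD163, another macrophage gene, stood at 9.36, 28.0 and 41.7 FPKM in LBF, against 14.7, 17.1 and 22.2 in HBF, so its groups overlapped. In LBF replicate 3 the immune sum, 304, was in the range of HBF, whereas UCP2, at 4.02 FPKM, and PPARD, at 11.3, were between the other 2 LBF libraries. ACSS1, at 6.57 FPKM, was there at its highest in LBF, and within each group its libraries had the same order as their immune sums. UCP2 had that order in HBF only. These matches were noticed after the values were seen, and the share of all genes with such an order was not counted. Without LBF replicate 3 the log2 fold changes of HBF against LBF were 1.35, 1.48 and 1.49 for PPARD, UCP2 and ACSS1. The part of immune cells in their difference was not tested.

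The summed FPKM of 7 endothelial genes was 280, 433 and 207 in LBF, against 623, 455 and 364 in HBF, and these ranges overlapped. TIE1 and ESAM were higher at the unadjusted limit, against 9.36% of all genes. The count was 0 without LBF replicate 3 or after median-of-ratios scaling, and 1 after quantile normalization. In LBF, replicate 2 had the highest endothelial sum and the highest UCP2, while in HBF, replicate 3 had the lowest endothelial sum and the highest UCP2. The smooth muscle and pericyte sum was 193 to 223 in LBF and 300.3 to 442 in HBF, with TAGLN, 1 of 6 genes, higher at the limit. Without TAGLN the sum of the other 5 genes was 152, 126 and 107 in LBF, against 123, 162 and 161 in HBF, and the groups overlapped. The sum of 8 adipocyte genes, 8552 to 11050 in LBF and 8625 to 13830 in HBF, overlapped, and that of 6 fibroblast and stromal genes was 2346 to 7525 in LBF and 1618 to 3808 in HBF. The blood genes HBB and ALAS2, 2 of 3, were lower in HBF at the limit, against 4.22% of all genes, and 1 was without LBF replicate 3.

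The muscle fibre transcripts in LBF replicate 3 amounted to 0.578% of their level in muscle, as a median of 5 genes, and to 0.0084% to 0.0615% in the other fat libraries. In muscle, 4 of 8 adipocyte genes (CIDEC, LEP, ADIPOQ and PLIN1) were higher and LPL was lower in HIMF at an unadjusted p under 0.05, and 0 of 12 immune and 0 of 7 endothelial genes reached that limit, against 4.51% of all genes that were higher and 2.52% that were lower. The adipocyte sum itself was not higher in HIMF, at 254 to 415 in LIMF and 162 to 292 in HIMF, and these ranges overlapped. LIPE and PNPLA2 of that list had means of 33.1 and 147 FPKM in LIMF, against 17.4 and 102 in HIMF. FABP4 had means of 38.4 and 42.9. LEP was near 0 in muscle, at 0.03 to 0.45 FPKM. The immune sum of the LIMF libraries was 18.6 to 34.6, and that of the HIMF libraries was 14.3 to 29.0. The zeros of ACTA1 and CKM fell mostly in LIMF, and their part in the muscle values was not tested.

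**Figure D5:**
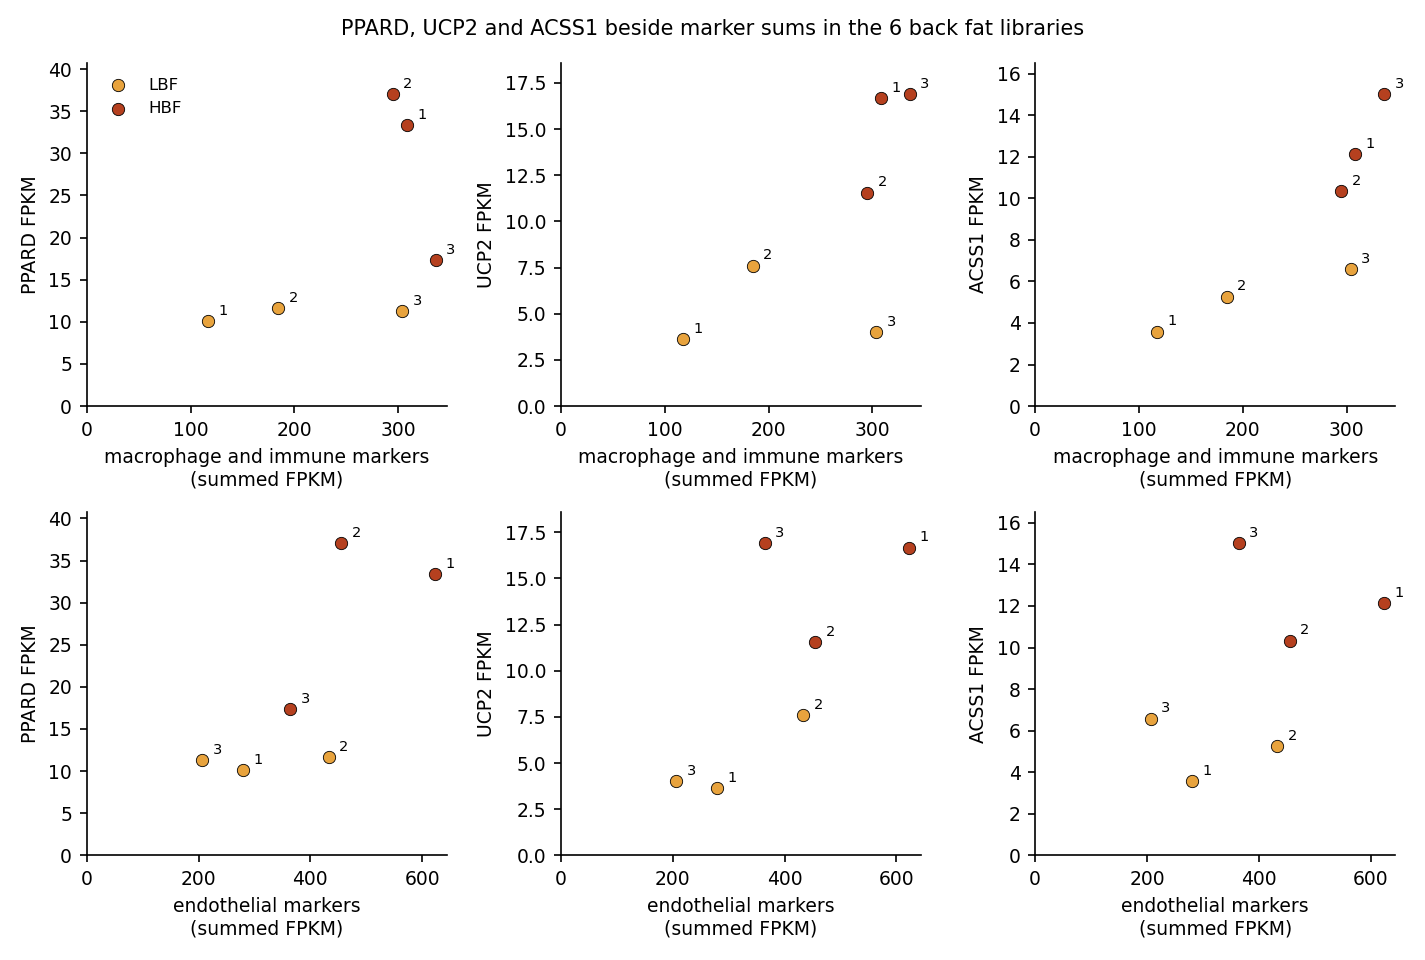
FPKM of PPARD, UCP2 and ACSS1 (vertical axes) against the summed FPKM of macrophage and other immune markers (top) or endothelial markers (bottom) in the 6 back fat libraries, with the replicate number beside each point. LBF replicate 3 has an immune sum of 304, inside the HBF range, and the highest ACSS1 of the LBF libraries. The order of ACSS1 follows that of the immune sum within both groups, and that of UCP2 does so in HBF only.

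The genes whose levels ran most alike were sought among named genes with a mean of at least 1 FPKM. Over the 12 libraries (9844 genes compared) PPARD was most like WDR82, TAF5L and REXO1, with Pearson r of 0.931, 0.929 and 0.928. UCP2 was most like GNAZ, ATN1 and SLITRK6 (r = 0.960, 0.953 and 0.953), and ACSS1 was most like DDAH1, FAM131C and PLIN5 (r = 0.777, 0.745 and 0.745). The values for ACSS1 were lower than those for the other two, and the 12 points mix both tissues and both group differences. Between the 3 genes r was 0.744 for PPARD and UCP2, 0.264 for PPARD and ACSS1 and 0.212 for UCP2 and ACSS1.

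Over the 6 fat libraries (10035 genes compared) PPARD was most like IL10RB, TAGLN and FZR1 (r = 0.993, 0.991 and 0.991), UCP2 was most like GPSM1, SF3B4 and CLEC14A (r = 0.994, 0.988 and 0.985), and ACSS1 was most like DTX2, ARHGDIB and LGMN (r = 0.991, 0.990 and 0.989). TAGLN is an actin-binding protein of smooth muscle, CLEC14A is an endothelial surface protein, and ARHGDIB is abundant in blood cells. LGMN, a lysosomal protease rich in macrophages, stood at 109, 155 and 190 FPKM in LBF, against 316, 250 and 315 in HBF. Between the 3 genes r was 0.769 for PPARD and UCP2, 0.736 for PPARD and ACSS1 and 0.898 for UCP2 and ACSS1. These values describe 6 points that fall into 2 groups and carry no test.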

How the data were processed

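Fat and muscle RNA of 12 libraries was sequenced. The authors deposited FPKM values of Ensembl genes, made with Cufflinks 2.2.1 from fastp-filtered reads that HISAT2 had aligned to the Sscrofa11.1 assembly. The submitters' notes also name DESeq2 1.25.9. FPKM carries no counting error, so the depth behind a value is unknown and no floor is given.

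From the 31910 deposited rows, 7 identifiers on 2 rows were summed. Libraries were grouped by their titles. Differences were tested with limma 3.58.1 (R 4.3.3, eBayes with a trend) after the transformation log2(FPKM + 0.1). Genes entered a fit if their FPKM averaged over 0.05 in its libraries, and p-values were adjusted by Benjamini-Hochberg. A call needed an adjusted p below 0.01 together with a log2 fold change of 1 or more in either direction. Fat groups were fitted on the 6 fat libraries, muscle groups on the 6 muscle libraries, and tissues as a contrast over all 12. Single genes in muscle were also tested by two-sided exact permutation. Per the study's methods, the libraries of a group come from different pigs, and which pigs gave both tissues is not given. Library codes of fat and muscle share numbers, which were not used to pair them. The tissue contrast therefore took the 12 libraries as separate pigs. The procedure was checked on simulated data.

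Genes were named by symbol from a table that pairs 15025 identifiers with 1 symbol, and 177 of 193 listed symbols had a value. PPARD, UCP2 and ACSS1 and all lists were chosen with earlier results of these data known. Named besides them were their family members, the 2 genes of each pathway list with the highest and the 2 with the lowest log2 fold change in each tissue among those with a mean of at least 1 FPKM, and the 3 genes most correlated with each. Genes named outside this rule, and the marker sum without TAGLN, were chosen after their values were seen. Results for some of the genes so named were left out of the text. Alternatives tried were pseudocounts of 1 and 0.01, no filter, a stricter filter at 1 FPKM, quantile normalization, median-of-ratios scaling, no trend, a replicate block, all libraries in 1 fit and each library left out.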

Additional observations from a re-analysis of the deposited data

How the results depend on the processing

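In HBF against LBF, leaving out each library in turn gave log2 fold changes of 1.12 to 1.67 for PPARD, 1.41 to 1.93 for UCP2 and 1.06 to 1.49 for ACSS1, and the number of genes called was 0 to 2. The other 9 alternatives gave 1.22 to 1.34, 1.44 to 1.62 and 1.15 to 1.31. In HIMF against LIMF, leaving out each library gave -1.18 to -0.26 for PPARD, -0.04 to 0.63 for UCP2 and -1.74 to -0.52 for ACSS1, and 0 to 5 genes called, 5 of them without LIMF replicate 1. UCP2 changed sign there without HIMF replicate 2, at -0.036. With all 12 libraries in 1 fit 1 gene was called in muscle. The adjusted p of limma ranged from 0.261 to 0.999 for PPARD, 0.833 to 0.999 for UCP2 and 0.441 to 0.999 for ACSS1 over the muscle alternatives.

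In fat against muscle, median-of-ratios scaling and quantile normalization gave 0.37 and 0.66 for PPARD, no longer past the limits, and -0.76 and -0.66 for ACSS1, which also changed sign without LIMF replicate 1 (-0.06) and without HIMF replicate 2 (-0.21). Leaving out each library gave 1.10 to 1.56 for PPARD, 2.02 to 2.35 for UCP2, -0.21 to 0.40 for ACSS1 and 8833 to 9008 genes called. With a pseudocount of 1, which shrinks the differences of low genes, 5864 genes were called, against 9009 in the main fit. Among genes at an unadjusted p under 0.05, the share higher in HBF was 68.9% as deposited and 46.7% and 47.2% after the scalings, and the share higher in fat was 80.3%, 57.2% and 51.5%.

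For libraries of the same number in both groups of a tissue, r of their deviations was 0.061, 0.138 and 0.034 in fat. In muscle it was -0.058, 0.011 and -0.026. Whether such libraries share more than a number was not tested. With the replicate block the log2 fold changes were the same, with SEs of 0.252, 0.337 and 0.2 in fat for PPARD, UCP2 and ACSS1, and adjusted p of 0.791, 0.897 and 0.770 in muscle; 0 genes were called in either and 9000 in fat against muscle. FPKM gives no depth, so counting error could not be set beside the values.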
